A study of Mus musculus with 18 samples.

Results

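The genes described here are p53, encoded by Trp53, and 9 genes that it is known to activate: Cdkn1a, Mdm2, Ccng1, Bbc3, Pmaip1, Sesn2, Phlda3, Trp53inp1 and Gtse1. They were read in brains of mice in which Brca1 had been deleted by Cre, at postnatal day 7. Every probe set annotated to exactly 1 of these 10 genes was taken, on the A chip and the B chip for cortex and on the larger array used for samples titled rest. In all, 9 of the 10 genes had such a probe set, among 18193 genes with a probe set of their own. Trp53 itself is not analysed here. The knockout animals carried a floxed Brca1 allele (exons 5 to 13 lie between the recombination sites), a null allele in which a neo cassette sits inverted at exon 11, and Cre under the nestin promoter. The animals they were set against are labelled wildtype, and whether they carried Cre or a floxed allele is not stated. Nestin is active in neural progenitors, so cells of other origin in the tissue can keep the floxed allele. Each of the 3 tables holds 3 knockout and 3 wild-type arrays, 18 in all. The labels give P7 brain as the source of the rest samples and do not name a region. The labels call the arrays replicates but do not tie the arrays of different tables to the same animals.

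The transcription factor p53 is held at a low level by Mdm2, a ubiquitin ligase that p53 itself switches on. Kinases that sense DNA breaks release it from Mdm2, and it then activates genes that stop the cell cycle, aid repair or trigger death. Brca1 takes part in the repair of double-strand breaks by homologous recombination, and in the developing mouse brain its loss is known to cause death of neural progenitors through p53.

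A p53 binding site is made of a pair of decamers with a short spacer, and Cdkn1a is a well-known carrier of such sites. The 250 bases before the annotated starts are shown for 4 of the target genes on which the values below turn, from RefSeq on GRCm38.p6, each 5′ to 3′ on the strand of its gene. Capitals mark every decamer that fits the p53 consensus exactly and every decamer that forms a pair with it, where a pair has at most 2 mismatches in all and a spacer of at most 13 bases. The Cdkn1a window is chr17:29090729-29090978 on the plus strand, the Ccng1 window chr11:40755287-40755536 on the minus strand, the Mdm2 window chr10:117710759-117711008 on the minus strand and the Phlda3 window chr1:135765835-135766084 on the plus strand.
Cdkn1a: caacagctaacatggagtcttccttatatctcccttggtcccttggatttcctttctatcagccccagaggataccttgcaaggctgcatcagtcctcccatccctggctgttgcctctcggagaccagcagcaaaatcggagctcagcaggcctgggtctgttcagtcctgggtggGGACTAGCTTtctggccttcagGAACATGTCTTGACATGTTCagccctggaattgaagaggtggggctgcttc
Ccng1: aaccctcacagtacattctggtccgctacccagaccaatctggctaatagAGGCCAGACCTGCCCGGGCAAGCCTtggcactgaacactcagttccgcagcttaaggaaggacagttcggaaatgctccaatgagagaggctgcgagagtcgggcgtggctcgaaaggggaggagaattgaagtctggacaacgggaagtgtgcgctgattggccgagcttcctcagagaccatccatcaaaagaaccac
Mdm2: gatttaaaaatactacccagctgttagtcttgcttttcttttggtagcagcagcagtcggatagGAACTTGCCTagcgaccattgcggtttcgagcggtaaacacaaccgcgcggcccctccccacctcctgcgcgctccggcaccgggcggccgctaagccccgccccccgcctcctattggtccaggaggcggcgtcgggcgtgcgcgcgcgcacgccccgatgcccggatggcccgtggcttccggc
Phlda3: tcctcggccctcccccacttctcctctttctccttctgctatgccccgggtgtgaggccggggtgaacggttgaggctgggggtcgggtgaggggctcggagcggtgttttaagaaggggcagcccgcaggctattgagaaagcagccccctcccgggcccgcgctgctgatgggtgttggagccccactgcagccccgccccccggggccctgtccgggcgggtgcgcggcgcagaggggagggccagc

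Cdkn1a held 2 exact decamers, which begin 73 and 51 bases before the more upstream of its annotated starts. They form a pair with a spacer of 12 bases and 0 mismatches. The decamer at -51 also pairs, at a spacer of 0, with one at -41 that has 1 mismatch. In Ccng1, the exact decamer at -185 pairs with a decamer at -195 that has 1 mismatch (spacer 0) and with an overlapping one at -200 that has 2 (spacer 5). Mdm2 had 1 exact decamer at -186 and no pair in this window, and Phlda3 had no exact decamer in its window. RefSeq windows were given for 7 of the 9 genes with probe sets, 11 windows in all because some genes have several starts. Pmaip1 and Trp53inp1 had none. An exact decamer was in 3 of the 11 windows, against 7.13% of all 32851 windows of the same length. A pair was in 2 of the 11, against 3.34% of all windows. The strand of each gene was searched, which covers both strands because the consensus reads alike on them. The windows of Bbc3, Sesn2 and Gtse1, and the window at the other Cdkn1a start (chr17:29093519-29093768), held no exact decamer. A match describes the letters only.

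**Figure D1:**
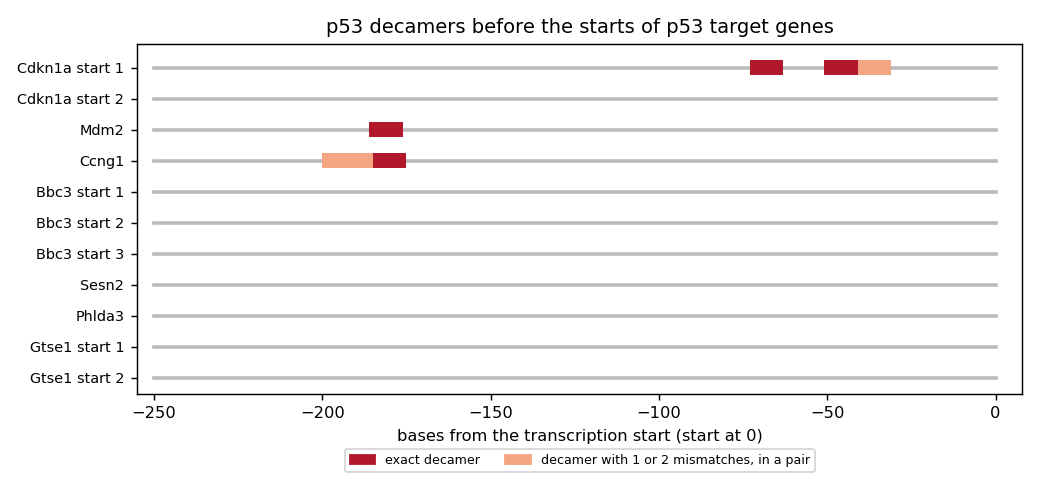
Decamers that fit the p53 consensus in the 250 bases before each annotated start of the p53 target genes, with bases from the start on the x axis and 1 line per start. Exact decamers (dark red) are drawn in 3 of the 11 windows, 2 in Cdkn1a and 1 each in Mdm2 and Ccng1, and decamers with 1 or 2 mismatches that pair with them, in Cdkn1a and Ccng1, are in light orange.

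The values are MAS5 signals, scaled here so that the arrays of a table share a common level, and changes are differences of log2(signal + 16), knockout minus wild type. A probe set was tested with limma where at least 2 arrays of each genotype listed a signal, and it was called at a Benjamini-Hochberg adjusted p under 0.05 over the whole table. The share of probe sets with a signal was 54% to 58% per array on the A chip and 49.2% to 51.6% among the rest samples, and 33.6% to 42.6% on the B chip. The other cells were blank. The Brca1 probe set 1424629_at had signals of 51.4, 44.0 and 61.4 in knockout cortex, against 38.0, 36.9 and 48.9 in wild-type cortex, with a change of 0.25 (SE 0.159, limma adjusted p = 0.496). Its rest signals were 118.5, 86.0 and 134.8 in knockout samples, against 101.8, 111.8 and 114.3 in wild-type samples (0.03, SE 0.17, limma adjusted p = 0.978). Which exon this probe set reads is not known, so it checks neither the labels nor the deletion. Knockout replicates 1 and 2 listed the Y-linked Eif2s3y in all 3 tables, and knockout replicate 3 and the wild-type arrays did not. Genotype is therefore partly mixed with sex, and values of knockout replicate 3 are pointed out below. A term for the Y-linked transcript leaves knockout replicate 3 as the only knockout array behind a knockout change. Whether sex accounts for any change was not tested. Of 10 excitatory neuron markers, 8 have a probe set on the cortex A chip and 1 of these (Camk2a) was blank throughout.

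None of the 9 genes named at the start, called the p53 targets here, passed the test in any table. Other genes of the p53 pathway are counted apart below, and of these Rps27l, Ephx1 and Dcxr were called. In cortex, all 3 knockout signals lay above all 3 wild-type signals for Trp53inp1, Phlda3 and 2 of the 3 Ccng1 probe sets, with ratios of mean signals of 1.19 to 1.61. In the rest samples the same held for Cdkn1a, Phlda3 and all 3 Ccng1 probe sets, with ratios of 1.16 to 1.41. Mdm2 overlapped between the genotypes on every probe set tested. Pmaip1, Sesn2 and Gtse1 were blank on every array.

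In counts, the cortex A chip holds 15 probe sets of the 9 genes, of which 6 were blank on all arrays, 2 were listed on some arrays without being tested, and 7 (of 4 genes) were tested. Of the 7, 0 were called by limma, on a chip where 3.02% of all 12065 probe sets tested were called. At an unadjusted limma p under 0.05 there were 4 of the 7, against 15.7% of all probe sets tested. Knockout lay above wild type on every listed array for 4 of the 7, against 11.6% of all. The median change of the 7 was 0.24, against -0.0091 for all probe sets tested, and 5 were above 0. A probe set has to be listed in both genotypes to be tested, so these counts leave out any that only 1 genotype lists. As the genes were chosen with earlier results of these data known, the counts here and for the rest table are no independent evidence.

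The rest table holds 16 probe sets of the same 9 genes: 4 were blank on all arrays, 3 were listed on some arrays without being tested, and 9 (of 5 genes) were tested. limma called 0 of the 9, where 0.313% of all 21407 probe sets tested were called. At an unadjusted limma p under 0.05 there were 4 of the 9, against 10.5% of all. Knockout lay above wild type on every listed array for 5 of the 9, against 8.42% of all. The median change of the 9 was 0.27, against 0.0010 over the whole table, and 8 were above 0. The cortex B chip carries only Mdm2 1457929_at, which was blank on all 6 arrays, so 0 were tested there, and 0.281% of the 7838 probe sets tested on that chip were called.

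**Figure D2:**
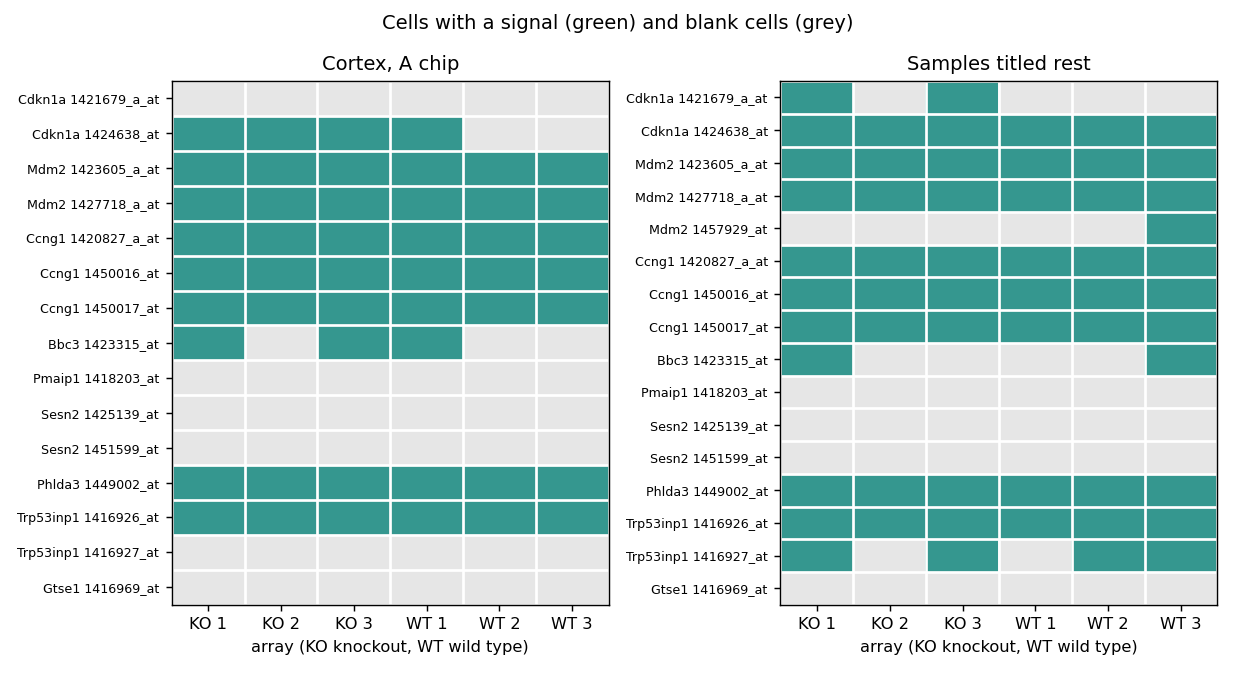
Cells with a signal (green) and blank cells (grey) for each probe set of the p53 targets, with the arrays on the x axis, for the cortex A chip and the samples titled rest. Pmaip1, Sesn2 and Gtse1 are blank on every array, and Cdkn1a 1424638_at on the A chip is listed on 3 knockout arrays and 1 wild-type array.

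Cdkn1a encodes p21, the inhibitor of cyclin-dependent kinases through which p53 arrests cells before DNA replication. Rest samples gave Cdkn1a 1424638_at signals of 1045.3, 807.0 and 777.3 in knockout replicates 1 to 3, against 615.5, 639.7 and 631.8 in wild-type replicates 1 to 3. All knockout signals were above all wild-type signals, including that of knockout replicate 3, which did not list the Y-linked transcript, and knockout replicate 1 was the highest. The means were 876.5 ± 146.9 in knockout and 629.0 ± 12.3 in wild-type samples (SD, n = 3 each), and the change was 0.46 (SE 0.111, 95% interval 0.21 to 0.70). The unadjusted limma p was 0.00226 and the adjusted p 0.166. With a term for the Y-linked transcript, the change of Cdkn1a rests on knockout replicate 3 alone against the wild-type samples, and it was 0.30.

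On the cortex A chip, Cdkn1a 1424638_at had signals of 281.0, 224.5 and 250.3 in the 3 knockout arrays, against 193.3 in wild-type replicate 1, while wild-type replicates 2 and 3 were blank. Every knockout array listed Cdkn1a, above the only wild-type signal, but with 1 wild-type signal there was no test. Of the A chip probe sets listed on at least 4 arrays with a median signal between 200 and 300, 3.12% had a blank cell, against 8.41% of those between 100 and 200. Setting blank cells to the 5th percentile of their array gave a change of 1.57 for Cdkn1a (limma adjusted p = 0.151), a value that rests on the filled cells. The other Cdkn1a probe set, 1421679_a_at, was blank on all cortex arrays. In the rest table it listed 131.5 and 107.8 in knockout replicates 1 and 3 and was blank in knockout replicate 2 and in all wild-type samples. Where cells of Cdkn1a were partly blank, more knockout than wild-type arrays listed it, 3 against 1 for 1424638_at in cortex and 2 against 0 for 1421679_a_at in the rest samples. The share of all probe sets with such an excess was not counted, so this is a description only. The 3.12% and 8.41% cover blanks in either genotype.

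Ccng1 encodes cyclin G1, a p53 target that recruits a phosphatase to Mdm2. Its probe set 1450016_at had signals of 213.3, 279.4 and 236.6 in knockout cortex, against 158.8, 179.5 and 179.2 in wild-type cortex. The groups did not overlap, and the change was 0.45 (SE 0.123, 95% interval 0.18 to 0.72, limma adjusted p = 0.086). The same probe set of Ccng1, 1450016_at, had rest signals of 523.4, 493.1 and 609.5 in knockout, against 383.5, 405.8 and 469.8 in wild-type samples, again without overlap (0.36, SE 0.112, 95% interval 0.11 to 0.61, limma adjusted p = 0.289). Knockout replicate 3 was the highest rest sample and the middle knockout array in cortex.

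The Ccng1 probe set 1420827_a_at had signals of 257.8, 309.6 and 289.4 in knockout cortex, against 242.1, 255.6 and 219.3 in wild-type cortex. The groups were separated by a narrow gap, between knockout replicate 1 and wild-type replicate 2 (0.24, SE 0.109, 95% interval 0.00 to 0.48, limma adjusted p = 0.315). Its rest signals were 493.7, 487.9 and 559.0 in knockout, against 458.0, 422.8 and 450.1 in wild-type samples (0.20, SE 0.0912, limma adjusted p = 0.483). The third Ccng1 probe set, 1450017_at, read differently in the 2 tables. In cortex it had 165.7, 147.1 and 170.9 in knockout, against 185.7, 122.4 and 183.0 in wild-type arrays, so the knockout signals lay inside the wild-type range (change -0.0014, SE 0.156, 95% interval -0.35 to 0.34, limma adjusted p = 0.997). Among rest samples Ccng1 1450017_at had 320.3, 344.1 and 400.2 in knockout, against 252.8, 253.3 and 264.3 in wild-type samples, without overlap (0.44, SE 0.111, 95% interval 0.19 to 0.69, limma adjusted p = 0.188). Ccng1 thus had every knockout signal above every wild-type signal in 5 of its 6 readings, none past the threshold. Its probe sets read the same arrays, so the readings are not separate replicates. Knockout lay above wild type on every listed array for 11.6% of all probe sets tested on the A chip and 8.42% in the rest table.

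Mdm2, the ligase that removes p53 and closes the feedback loop, showed no such separation. Its probe set 1423605_a_at had signals of 213.8, 220.9 and 252.5 in knockout cortex, against 234.6, 213.3 and 251.1 in wild-type cortex. The 2 ranges nearly coincide, with a change of -0.02 (SE 0.111, 95% interval -0.27 to 0.22, limma adjusted p = 0.947). Mdm2 1427718_a_at had 134.0, 147.3 and 147.1 in knockout, against 118.8, 137.7 and 140.3 in wild-type cortex (0.10, SE 0.12, 95% interval -0.16 to 0.37, limma adjusted p = 0.755). The interval of Mdm2 1427718_a_at in cortex reaches 0.37 and so includes the 0.24 measured for Ccng1 1420827_a_at, while that of 1423605_a_at ends at 0.22. That Ccng1 value has an interval of its own, 0.00 to 0.48, and whether the changes of Mdm2 and Ccng1 differ was not tested.

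Mdm2 1423605_a_at in the rest samples had 479.2, 492.8 and 471.8 in knockout, against 390.5, 494.7 and 521.6 in wild-type samples (0.05, SE 0.113, 95% interval -0.21 to 0.30, limma adjusted p = 0.928). The knockout signals lay within the wild-type range. Mdm2 1427718_a_at had 271.5, 299.2 and 370.4 in knockout, against 322.8, 306.1 and 331.1 in wild-type samples, where the knockout range encloses the wild-type range (-0.04, SE 0.124, 95% interval -0.32 to 0.24, limma adjusted p = 0.948). The remaining Mdm2 probe set, 1457929_at, was listed once in the rest table, at 30.7 in wild-type replicate 3.

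Phlda3 encodes a protein that keeps the kinase Akt from the membrane, by which p53 dampens survival signalling. In knockout cortex Phlda3 1449002_at had signals of 207.5, 222.6 and 268.0, against 135.1, 195.0 and 153.0 in wild-type cortex. The lowest knockout array stood just above wild-type replicate 2, and knockout replicate 3 was the highest. The change was 0.50 (SE 0.147, 95% interval 0.17 to 0.82), with a limma p of 0.00633 and an adjusted p of 0.113. The rest signals of Phlda3 were 581.2, 585.8 and 594.2 in knockout, against 460.1, 349.4 and 442.7 in wild-type samples. The 3 knockout signals lie close together (587.1 ± 6.61, against 417.4 ± 59.5 in wild-type samples, SD, n = 3 each) and above all of the wild-type signals. The change was 0.49 (SE 0.11, 95% interval 0.24 to 0.73). Its limma p of 0.00145 was the lowest of the 9 genes named at the start in that table, with an adjusted p of 0.138. With a term for the Y-linked transcript, the difference of Phlda3 rests on knockout replicate 3 alone against the wild-type arrays. It was 0.70 in cortex and 0.50 in the rest samples.

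Trp53inp1 encodes a nuclear protein that takes part in p53-driven cell death and in autophagy. On the cortex A chip, Trp53inp1 1416926_at had signals of 106.7, 138.0 and 112.0 in knockout, against 78.4, 82.9 and 60.1 in wild-type arrays. No signals overlapped, and the change was 0.59 (SE 0.152, 95% interval 0.25 to 0.93). Of the 9 genes named at the start it came nearest the threshold, with a limma p of 0.00278 and an adjusted p of 0.0725. With a term for the Y-linked transcript, which leaves knockout replicate 3 alone against the wild-type arrays, the cortex change of Trp53inp1 was 0.52. Its rest signals were 241.5, 268.4 and 308.4 in knockout, against 223.3, 184.4 and 267.7 in wild-type samples. There wild-type replicate 3 lies above knockout replicate 1 and the groups overlap (0.27, SE 0.151, 95% interval -0.07 to 0.61, limma adjusted p = 0.59), and without wild-type replicate 2 the difference was 0.1419. The dimmer Trp53inp1 1416927_at was blank on all cortex arrays. It had rest signals of 110.9 and 198.1 in knockout replicates 1 and 3, against 91.0 and 161.0 in wild-type replicates 2 and 3 (0.26, SE 0.317, limma adjusted p = 0.839).

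**Figure D3:**
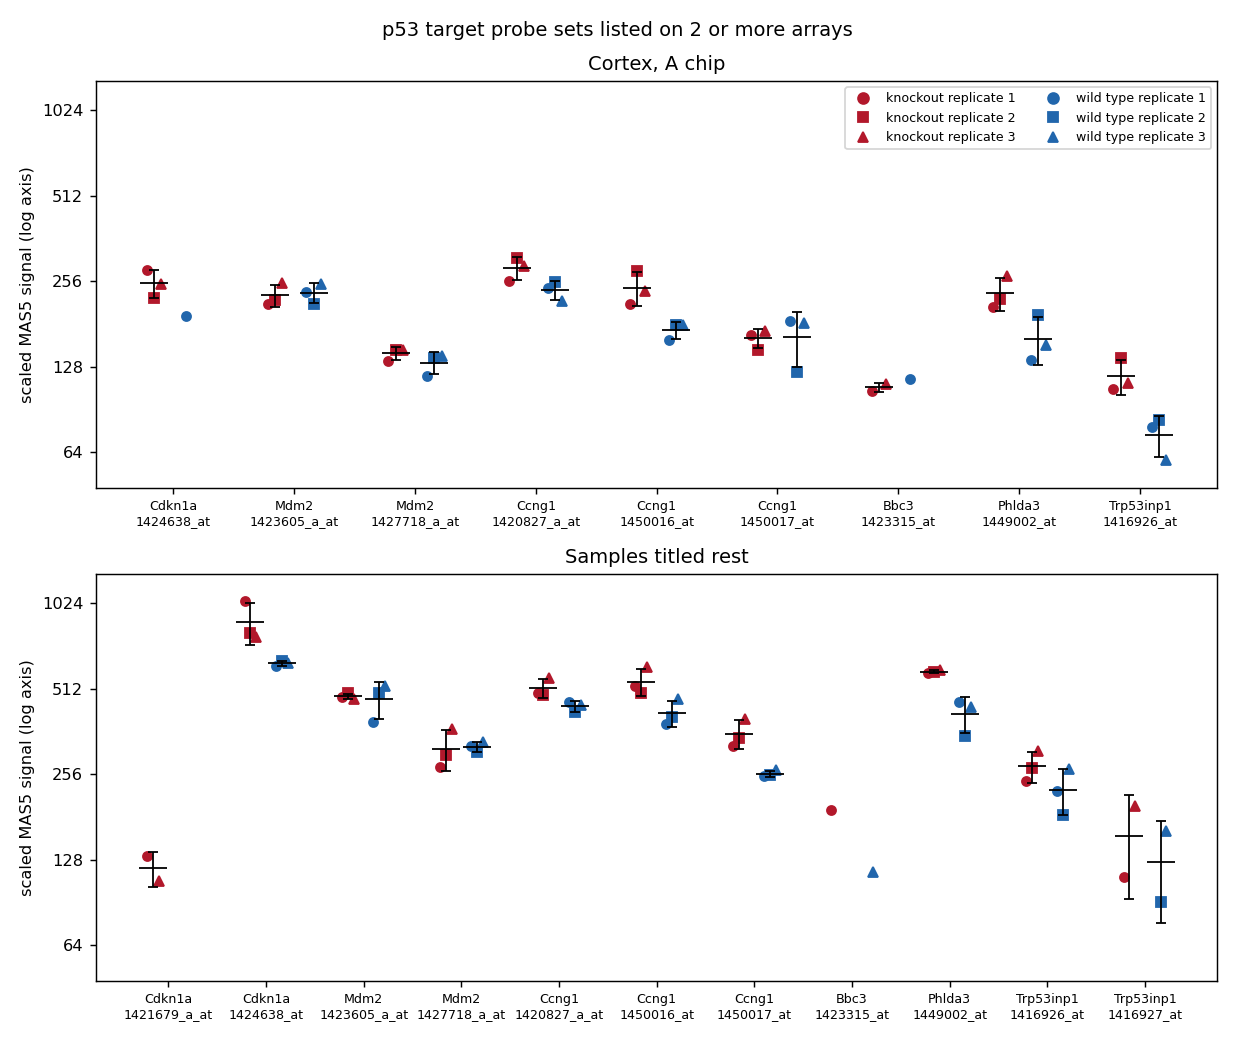
Scaled MAS5 signal (log axis) of each p53 target probe set listed on 2 or more arrays, with knockout replicates in red left of wild-type replicates in blue, and bars for the mean ± SD where a genotype has 2 or more signals. In the rest samples the knockout points of Cdkn1a 1424638_at (777.3 to 1045.3) sit above the wild-type points (615.5 to 639.7), and the Mdm2 points overlap.

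Bbc3 encodes Puma and Pmaip1 encodes Noxa, the BH3-only proteins through which p53 starts apoptosis, and neither had enough signals for a test. On the cortex A chip, Bbc3 1423315_at had signals of 105.7 and 111.0 in knockout replicates 1 and 3, against 116.5 in wild-type replicate 1, and the other 3 arrays were blank. In the rest table it was listed at 191.4 in knockout replicate 1, against 116.0 in wild-type replicate 3. Pmaip1 1418203_at was blank on all 12 arrays of the 2 tables. Sesn2 encodes a stress-induced inhibitor of mTORC1 signalling, and both of its probe sets (1425139_at and 1451599_at) were blank throughout. Gtse1 encodes a microtubule-bound protein of dividing cells that, in human cells, carries p53 out of the nucleus, and 1416969_at was also blank throughout. A blank is no measured 0, since the labels do not say what a blank cell means, so no level or change is given for Pmaip1, Sesn2 and Gtse1.

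The knockout changes in the rest samples and in cortex were compared in a joint limma fit on the 11959 probe sets tested in both tables, where 0.0502% of all probe sets were called. Of the 7 p53 target probe sets in this fit, limma called 0, and 1 was at an unadjusted p under 0.05. This was Ccng1 1450017_at, with a difference, rest minus cortex, of 0.44 (SE 0.198, limma adjusted p = 0.458). Trp53inp1 1416926_at differed by -0.32 (SE 0.22, limma adjusted p = 0.645), by -0.0808 without wild-type replicate 3 and by -0.5207 without wild-type replicate 2. For Phlda3 the changes of 0.49 in the rest samples and 0.50 in cortex differed by -0.01 (SE 0.193, limma adjusted p = 0.991). The other 4 differences, of Ccng1 and Mdm2, lay between -0.14 and 0.07. Cdkn1a could not enter this fit because of its blank cells on the A chip. The fit treated the arrays of both tables as independent, and the labels do not say whether they share animals. With arrays of the same genotype and number blocked across the tables (correlation 0.0447), limma called 0.0585% of all probe sets.

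**Figure D4:**
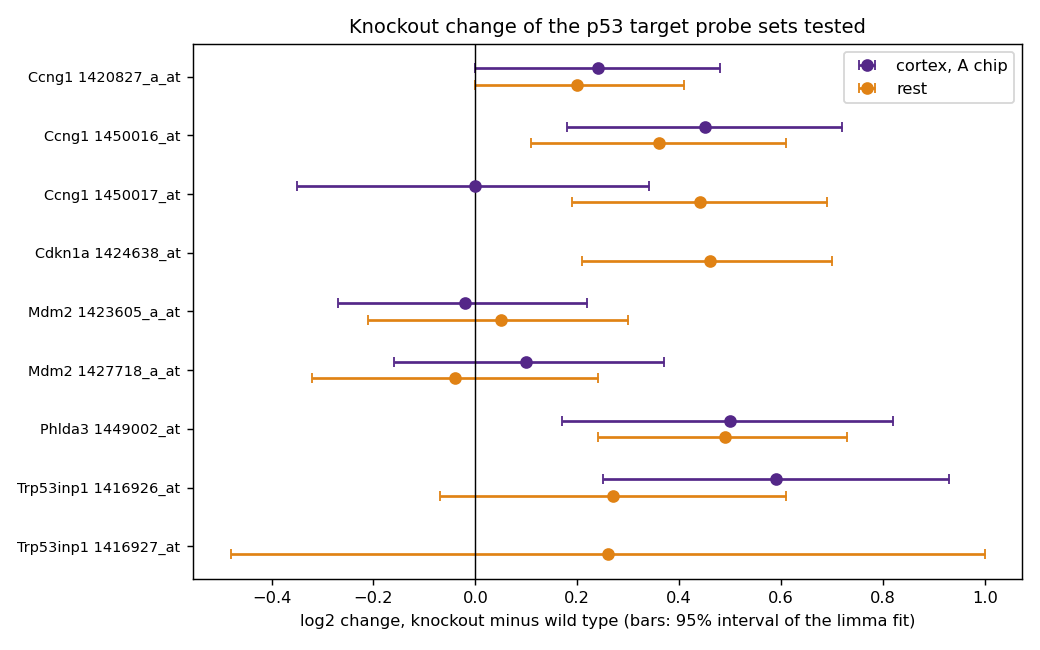
Knockout minus wild-type log2 change with its 95% interval from the limma fit for each p53 target probe set tested, on the cortex A chip (purple) and in the samples titled rest (orange). The Phlda3 changes coincide (0.50 and 0.49), those of Ccng1 1450017_at lie apart (-0.0014 in cortex and 0.44 in the rest samples), and the Mdm2 intervals span 0.

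Phlda3 1449002_at had the lowest p among the p53 target probe sets listed on all 12 arrays, and its pattern was compared among the 10886 probe sets listed on all of them. After centring within each table, the highest correlations across the 12 arrays were with Prkar1a 1425550_a_at (r = 0.944), Zfp622 1438000_x_at (r = 0.942) and Serinc3 1456080_a_at (r = 0.937). These are descriptions over arrays that share genotype and scaling, without a test.

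Of 20 regulators of p53 and kinases that act on it, 12 were tested on the cortex A chip, and 1 rose (Rps27l) while 0 fell, on a chip where 3.02% of probe sets were called. A gene counts as called here when any of its probe sets was, and medians take the brightest probe set of each gene. At an unadjusted limma p under 0.05 for any probe set there were 3 of the 12 genes, 2 higher and 1 lower in knockout, against 15.7% of all probe sets tested. This list was chosen with earlier results of these data known, so its call is no independent evidence about p53. Rps27l encodes a ribosomal protein that is a p53 target and in turn affects Mdm2. Its probe set 1423254_x_at had signals of 505.5, 543.4 and 504.9 in knockout cortex, against 420.1, 349.3 and 398.8 in wild-type cortex (0.40, SE 0.0935, limma adjusted p = 0.0471). All knockout arrays lay above all wild-type arrays, and 1435429_x_at gave 0.38 (limma adjusted p = 0.0475). The other Rps27l probe set, 1450925_a_at, overlapped between genotypes (0.36, limma adjusted p = 0.214). Leaving out any 1 array ended both Rps27l calls, with limma adjusted p of 0.0658 to 0.167. With the term for the Y-linked transcript, which leaves knockout replicate 3 alone against the wild-type arrays, the changes were 0.37 and 0.35. In addition, the x_at probe sets can take up signal of near-identical ribosomal protein transcripts. Ppm1d, a phosphatase that switches the response off, was listed on 2 arrays of each genotype with a change of 0.50 (limma adjusted p = 0.271). The median change of the regulators in cortex was 0.00. On the B chip 8 of them were tested and limma called 0, with 0 at an unadjusted p under 0.05.

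Of the regulators, 16 were tested in the rest samples and limma called 0, with a median of -0.04. A probe set at an unadjusted limma p under 0.05 was found for 4, 3 lower and 1 higher in knockout. Over all probe sets tested the share was 10.5%. Hipk2 1428433_at, a kinase that phosphorylates p53, had 753.1, 856.4 and 848.0 in knockout, against 1010.5, 1008.9 and 1087.8 in wild-type samples. All knockout signals were below the wild-type signals (-0.33, SE 0.0794, limma adjusted p = 0.157). Atm 1421205_at, the kinase that reports double-strand breaks, had signals of 39.1, 30.5 and 39.3 in knockout, against 44.4, 86.3 and 77.5 in wild-type samples (-0.68, SE 0.215, limma adjusted p = 0.298). The brighter Atm 1428830_at overlapped (-0.12, limma adjusted p = 0.878).

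The list of 23 further targets linked to arrest, repair and metabolism, like the other lists, was chosen with earlier results of these data known. Its calls are therefore no independent evidence about p53. Of its genes 11 were tested in cortex, and 1 rose (Ephx1) while 0 fell, with a median of -0.01. On the chip 3.02% of probe sets were called, a share of probe sets and not of genes. Unadjusted limma p-values under 0.05 were found for 3 of the 11, 2 higher and 1 lower in knockout, against 15.7% of all probe sets tested. Among rest samples 16 were tested, 2 rose (Ephx1 and Dcxr) and 0 fell, with a median of 0.05 and 0.313% of probe sets called in the table. Of the 16, 4 had an unadjusted limma p under 0.05, 3 higher and 1 lower in knockout, against 10.5% of all probe sets tested. Both genes are metabolic: Ephx1 encodes microsomal epoxide hydrolase, and Dcxr encodes a reductase of carbonyl compounds and xylulose. Ephx1 1422438_at had 302.0, 299.1 and 341.4 in knockout cortex, against 121.6, 100.5 and 106.0 in wild-type cortex (1.40, SE 0.116, limma adjusted p = 9.63e-05). Ephx1 in the rest samples had 396.7, 544.9 and 467.6 in knockout, against 213.7, 176.1 and 213.9 in wild-type samples (1.15, SE 0.136, limma adjusted p = 0.0132), and the call was lost without knockout replicate 2 (limma adjusted p = 0.0672). Dcxr 1419456_at had 281.6, 265.5 and 235.9 in knockout, against 116.8, 71.9 and 114.1 in wild-type rest samples (1.27, SE 0.176, limma adjusted p = 0.0233), and its call was lost without knockout replicate 1 or 2 (0.0938 and 0.115). With a term for the Y-linked transcript, the changes in the rest samples rest on knockout replicate 3 alone against the wild-type samples. They were 1.16 for Ephx1 and 1.13 for Dcxr. Resting on that array alone, these values do not show that the calls hold.

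Btg2, an antiproliferative p53 target, did not pass the test: 1448272_at had 152.6, 165.0 and 129.2 in knockout cortex, against 109.5, 92.1 and 107.5 in wild-type cortex (0.47, SE 0.133, limma adjusted p = 0.101). Its groups did not overlap in cortex, and 1416250_at gave 0.45 there (limma adjusted p = 0.126), while the Btg2 changes in the rest samples were 0.07 and 0.06. Gadd45a, a stress and repair gene, was blank on all cortex arrays and had a change of -0.02 in the rest samples. Plk2, a kinase, had -0.12 in cortex and 0.05 in the rest samples, and Zmat3, an RNA-binding p53 target, had 0.01 and 0.04, with overlap in each. Tigar 1435929_at, which encodes a regulator of glycolysis, had -0.60 in the rest samples (SE 0.178, limma adjusted p = 0.271). On the B chip 4 genes of this group were tested and limma called 0, with 0 at an unadjusted p under 0.05.

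Of 19 further targets linked to cell death, 7 were tested in cortex (median 0.03), 2 on the B chip and 10 in the rest samples (median 0.08), and limma called 0 in each. At an unadjusted limma p under 0.05 there were 0 in cortex, 0 on the B chip and 2 in the rest samples. Of all probe sets tested, 15.7%, 7.39% and 10.5% were. Aen 1423957_at, a nuclease induced by p53, had 519.8, 529.0 and 617.8 in knockout, against 442.5, 387.6 and 445.9 in wild-type rest samples, without overlap (0.37, SE 0.102, limma adjusted p = 0.229). In cortex Aen overlapped (0.11, SE 0.102, limma adjusted p = 0.662). Trp53inp2 1452646_at, the autophagy-linked relative of Trp53inp1, lay on the opposite side in both tables, at -0.13 in cortex (limma adjusted p = 0.46) and -0.20 in the rest samples (limma adjusted p = 0.327). The death receptor genes Fas and Tnfrsf10b and the scaffold gene Pidd1 were blank on all arrays of both tables.

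**Figure D5:**
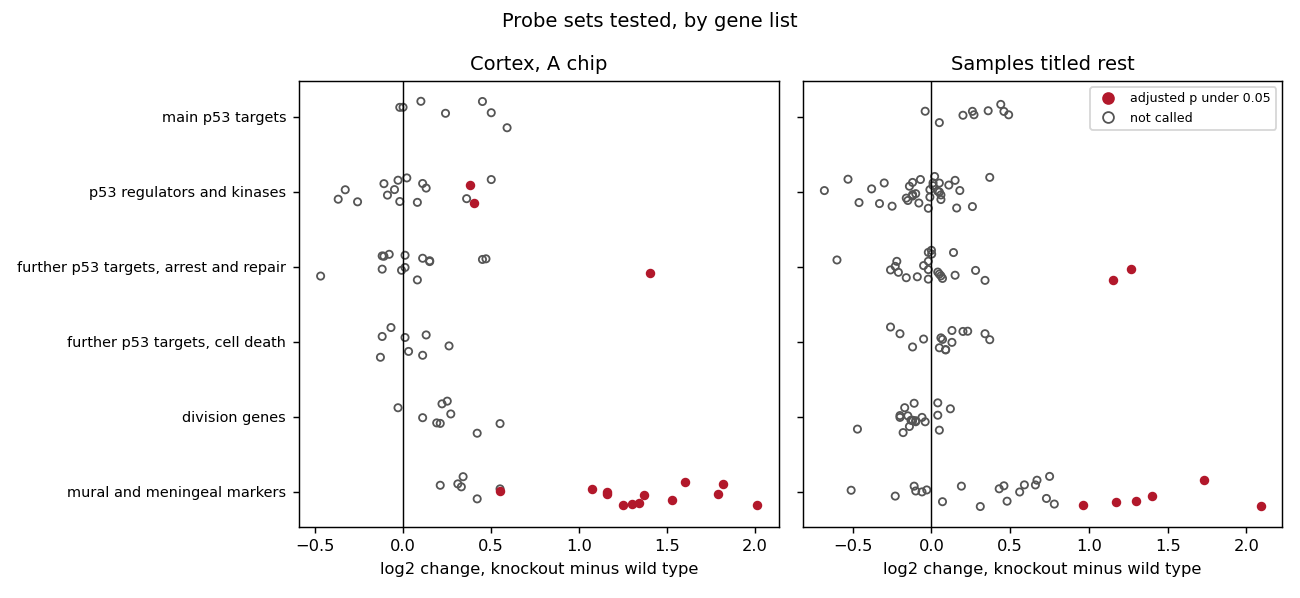
Knockout minus wild-type log2 change of every probe set tested in the main p53 targets, the other p53 pathway lists, division genes and mural and meningeal markers, on the cortex A chip and in the samples titled rest. Filled points were called at limma adjusted p under 0.05. The called p53 pathway points are Rps27l and Ephx1 in cortex and Ephx1 and Dcxr in the rest samples, and none of the main p53 targets is filled.

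Cell type markers moved between the same arrays, and in bulk tissue fewer cells of a type and less RNA per cell cannot be told apart. Over all probe sets tested, limma called 3.02% on the A chip and 0.313% in the rest samples. The shares at an unadjusted p under 0.05 were 15.7% and 10.5%. On the cortex A chip 11 of 13 mural and meningeal markers tested rose (median 1.25, summed signal of 11 genes 13101 to 16022 in knockout and 6794 to 7313 in wild-type arrays). Likewise 8 of 10 microglia and macrophage markers rose (median 0.65, sums of 4005 to 4428 in knockout and 2302 to 2649 in wild-type arrays), as did 5 of 10 endothelial markers (median 0.44, sums of 3155 to 3679 in knockout and 2369 to 2679 in wild-type arrays). Of 7 oligodendrocyte markers 4 fell (median -0.50, sums of 2115 to 2734 in knockout and 4016 to 4863 in wild-type arrays). In the rest samples 5 of 16 mural and meningeal markers rose (median 0.69, sums of 17342 to 21381 in knockout and 10967 to 18046 in wild-type samples) and 4 of 11 oligodendrocyte markers fell (median -1.94, sums of 5181 to 13756 in knockout and 21476 to 22461 in wild-type samples). The pericyte marker Kcnj8 and the blood markers Hba-a1 and Hba-a2 were blank on all arrays of both tables. Of the choroid plexus markers, limma called 0 of 2 tested on the A chip (median 0.94) and 1 of 3 on the B chip (Kcnj13, median 1.25). All of these had an unadjusted limma p under 0.05 and were higher in knockout. In the rest samples 0 of 6 were called (median 0.27), with 0 at an unadjusted p under 0.05. On the B chip Tbx18 also rose, and Bcas1 and Gpr17 fell. Astrocyte markers rose in 4 of 10 tested in cortex (Aqp4, Gfap, Gja1 and Gjb6, median 0.18). In the rest samples 0 of 10 were called (median -0.05), and the 3 at an unadjusted limma p under 0.05 were all lower in knockout. Interneuron markers fell in 3 of 7 in cortex (Dlx1, Gad1 and Lhx6, median -0.58). All 7 had an unadjusted limma p under 0.05 there, 5 lower and 2 higher in knockout. In the rest samples 0 of 9 interneuron markers were called, and 4 had an unadjusted limma p under 0.05, 3 higher and 1 lower. Of the excitatory neuron markers 1 of 7 fell in cortex (Neurod1, sums over 6 genes of 1841 to 2028 in knockout and 1784 to 2254 in wild-type arrays). In the rest samples 0 of 9 were called (unadjusted limma p under 0.05 for 2), with sums over 7 genes of 3599 to 4668 in knockout and 4993 to 6350 in wild-type samples, which do not overlap. Limma called 0 of 9 microglia and macrophage markers and 0 of 11 endothelial markers in the rest samples, with 6 and 1 at an unadjusted p under 0.05. Of the division genes, limma called 0 of 8 tested in cortex (median 0.23, sums of 506 to 573 in knockout and 352 to 545 in wild-type arrays) and 0 of 14 in the rest samples (median -0.11), with 2 and 0 at an unadjusted p under 0.05. The highest of them in cortex, Cdk1 1448314_at, had 133.8, 158.2 and 150.6 in knockout, against 87.3 and 104.1 in wild-type replicates 1 and 2 (0.55, SE 0.148, limma adjusted p = 0.0914). The part of these shifts in the values of the p53 targets was not tested.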

How the data were processed

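Total RNA was taken up in TRIZOL and labelled by the standard Affymetrix protocol, per the labels. The deposited values are intensity values, linear probe set signals made by the authors with MAS5 per the submitters' processing notes, with no version or setting given; the meaning of blank cells is not stated, and depth has no counterpart on arrays, where the number of arrays limits precision.

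Each array was multiplied by a factor (0.9477 to 1.059) that gave all arrays of its table the same trimmed mean, leaving out the top and bottom 2% of the probe sets that none of the 6 arrays left blank. Tests used limma 3.58.1 in R 4.3.3 (lmFit, eBayes with an intensity trend) on log2(signal + 16), without covariates, within each table, for probe sets listed on at least 2 arrays of each genotype, with Benjamini-Hochberg adjustment over the table. Blanks were treated as missing. No 2 arrays shared more than 0.169% of their signals exactly. Gene symbols came from the array annotation, updated through RefSeq; probe sets of several genes were not named. Whether arrays of a group come from separate animals rests on the design text, and p-values measure the spread between these arrays. The steps were tested on simulated data.

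The genes and lists were chosen with earlier results of these data known. In each list every called gene could be named, and otherwise up to 4 genes of lowest p; Gadd45a, Plk2, Zmat3 and the blank genes were named after their values were seen. For likeness, the probe set with the largest test statistic that all 12 arrays list was taken. Same-numbered arrays were checked for pairing: the correlation of their deviations lay under 0.1 for at least 1 pair in each table, so the numbers were not taken as pairs.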

Additional observations from a re-analysis of the deposited data

How the results depend on the processing

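Under the other settings tried (no scaling or quantile normalization, offsets of 1 and 64, only probe sets listed on all 6 arrays, blanks set to a low signal, other variance models, a replicate block, a sex-marker term for the Y-linked transcript, an adjusted p of 0.10 and each array left out), the count of p53 target probe sets called by limma stayed at 0 in cortex and in the rest samples, except that an adjusted p under 0.10 gave 2 on the cortex A chip (Trp53inp1 and Ccng1 1450016_at). Over these settings the limma adjusted p of Trp53inp1 in cortex ran between 0.0674 and 0.489, of Phlda3 between 0.0551 and 0.325 in cortex and 0.101 and 0.529 in the rest samples, and of Cdkn1a in the rest samples between 0.125 and 0.737. The sex-marker term leaves knockout replicate 3 as the only knockout array behind each change. Values near 0 changed sign, and the cause was not tested. In cortex Mdm2 1423605_a_at was 0.11 with the sex-marker term and -0.0907 to 0.0276 with arrays left out, and Ccng1 1450017_at was 0.0775 with the sex-marker term, 0.0005 at an offset of 1 and -0.1796 to 0.0924 with arrays left out. In the rest samples Mdm2 1427718_a_at was 0.20 with the sex-marker term, and with arrays left out it was -0.1577 to 0.0559, Mdm2 1423605_a_at -0.0755 to 0.1261 and Brca1 1424629_at -0.0958 to 0.1863. The rest minus cortex difference of Phlda3 was 0.0046 without scaling, 0.0406 with an offset of 64 and -0.2628 to 0.1690 with arrays left out, where those of Ccng1 1420827_a_at (-0.1180 to 0.0531), Ccng1 1450016_at (-0.1959 to 0.0652) and Mdm2 1423605_a_at (-0.0579 to 0.1706) also spanned 0.

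Calls over the whole tables moved more. Those with the sex-marker term are of changes that rest on knockout replicate 3 alone against the wild-type arrays. The cortex A chip had 364, but 82 with the sex-marker term, 607 at an adjusted p under 0.10, 218 without wild-type replicate 1 and 186 without knockout replicate 2. The rest table had 67, but 11 without an intensity trend, 10 with the sex-marker term, 161 at 0.10 and 13 to 68 with arrays left out. The B chip had 22, but 9 without a trend, 11 with blanks filled, 32 with the sex-marker term, 48 at 0.10 and 9 to 25 with arrays left out. With the replicate block there were 305, 142 and 12 calls on the A chip, in the rest table and on the B chip, and Phlda3 in the rest samples had a limma adjusted p of 0.101. Same-numbered arrays correlated best with each other in every case on the B chip only. Ephx1 in cortex lost its call under 0 of 17 settings, Ephx1 in the rest samples under 3, Dcxr under 5 and the Rps27l probe sets under 11 and 12. Genes with too many blank cells, such as Bbc3, could not be tested.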
